A study of Mus musculus with 18 samples.

Results

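Tumour cells were compared after growth in 2 kinds of host. GL261 is a mouse glioma line, and the GL261 cells injected here carried green fluorescent protein (GFP), so that a cell sorter could part GFP+ tumour cells from GFP- host cells. Sorted GFP+ cells came from tumours in Pfp/Rag2-/- mice (3 libraries, called P1, P2 and P3 after the numbers in their labels) and from tumours in wild-type (WT) mice (3 libraries, W1, W2 and W3). Both hosts are labelled C57BL/6, neither was treated, and tumours were taken when the mice showed symptoms. Pfp/Rag2-/- mice lack perforin, which killer lymphocytes use to open their targets, and Rag2, without which T and B cells do not mature. Such mice keep natural killer (NK) cells, though without perforin, and they keep macrophages and other myeloid cells. WT mice have all of these. The labels give 6 mice for each host and leave unsaid if mice were pooled for a library, so every p-value below measures only the spread between these libraries. The other 12 libraries of the series (unsorted tumours of both hosts, GFP- cells from WT tumours and GFP+ cells from culture) serve here only as a background to the 6. A gene was included where 3 or more of the 6 libraries had a normalized count of 10 or more, which held for 14807 of the 48795 genes in the table. Of these, 13263 reached 10 in all 6 libraries, 150 passed only through the Pfp/Rag2-/- libraries and 80 only through the WT libraries. Such a gene had to differ to be included, so its values are given as a description and its test supports nothing. Of the genes named below, Slc6a3, Dcn, Lox and Heyl passed only through the Pfp/Rag2-/- libraries and Apol6, H2-Eb2, H2-M2, Ccl8, Ccl24, Ubd and Serpina3f only through the WT libraries.

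Interferon-gamma, released by activated T cells and NK cells, binds a receptor that signals through the kinases Jak1 and Jak2 and acts on GAS elements in promoters. Its targets include the factor Irf1, the transactivators Nlrc5 for class I and Ciita for class II of the major histocompatibility complex (MHC), the immunoproteasome, the guanylate-binding proteins and the immunity-related GTPases. Type I interferons, which most cells can make, act through Stat2 and Irf9, among others, on another element, the ISRE, and drive antiviral genes such as the Oas, Ifit and Mx families. Many genes answer to both. Glioma cells also make their own extracellular matrix and keep parts of the glial and neural programmes of the brain.

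The 6 libraries held 19172814 to 20081406 reads each, recovered from the deposited values. Pearson's r across genes, on log2 values, was 0.966 to 0.993 among Pfp/Rag2-/- libraries, 0.976 to 0.984 among WT libraries and 0.934 to 0.967 between hosts. The first principal component carried 55.3% of the variance and parted the hosts, and the second, with 28.4%, set P1 apart from P2 and P3. The deleted genes were at or near their floor in sorted cells other than P1 and W1. Reads of Prf1, the perforin gene, numbered 128, 6 and 1 in Pfp/Rag2-/- cells and 123, 5 and 11 in WT cells, and Rag2 had 5, 0 and 0 reads in Pfp/Rag2-/- cells and none in WT cells. In unsorted tumours Prf1 had 8, 15 and 18 reads in Pfp/Rag2-/- and 118, 110 and 160 in WT tumours, and Rag2 had 5, 7 and 4 reads in Pfp/Rag2-/- tumours and none in WT tumours. So P1 held more Prf1 reads than the unsorted tumours of its host, and its Rag2 reads were as in them; every gene called below was also tested without P1. Counts cover whole genes, so a read from outside a deletion checks the label only in part. Glioma markers were present in all 6 libraries: 14 of 15 passed the filter, and their summed level was 157% to 165% of the GFP- mean in Pfp/Rag2-/- cells and 179.9% to 218% in WT cells.

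Markers of immune cells other than microglia and dendritic cells were low but not absent. P1 and W1 stood apart in several of them, and W3 in endothelial markers. The summed level of 22 pan-macrophage markers, as a percent of its mean in GFP- cells, was 2.38%, 0.462% and 0.455% in Pfp/Rag2-/- cells and 2.56%, 0.866% and 1.36% in WT cells. NK and cytotoxic markers stood at 7.04%, 0.23% and 0.182% in Pfp/Rag2-/- cells and 4.74%, 0.569% and 0.856% in WT cells. P1 and W1 thus held the most macrophage and NK RNA of their groups. T cell markers were at 2.25%, 0.571% and 0.656% in Pfp/Rag2-/- cells and 3.58%, 1.01% and 1.17% in WT cells. Of the genes that define T cells, Cd3e had 1, 0 and 2 reads in Pfp/Rag2-/- cells and 35, 2 and 6 in WT cells, and Trac, the constant part of the T cell receptor, had 8, 0 and 1 reads in Pfp/Rag2-/- cells and 80, 5 and 7 in WT cells, so W1 held most of them. Of those that define NK cells, Ncr1 had 60, 1 and 3 reads in Pfp/Rag2-/- cells and 15, 0 and 0 in WT cells, most of them in P1. Ifng, which encodes interferon-gamma, had 163, 1 and 4 reads in Pfp/Rag2-/- cells and 66, 2 and 10 in WT cells, again most in P1 and W1, and did not pass the filter. B cell markers stood at 4.16%, 2.83% and 3.11% in Pfp/Rag2-/- cells and 3.49%, 3.08% and 2.89% in WT cells, and neutrophil markers at 2.40%, 0.509% and 0.297% in Pfp/Rag2-/- cells and 8.66%, 8.16% and 1.79% in WT cells. Endothelial markers were at 41.6%, 24.3% and 24.7% in Pfp/Rag2-/- cells and 18.8%, 19.6% and 29.1% in WT cells. Here P1 and W3 were the highest of their hosts, and W3 lay within the range of the Pfp/Rag2-/- libraries. The other lists ranged more widely beside GFP- cells. Markers of monocyte-derived macrophages summed to 7.06% to 8.31% in Pfp/Rag2-/- cells and 14.7% to 17.8% in WT cells, microglia markers to 48.4% to 49.1% in Pfp/Rag2-/- cells and 63.6% to 70.2% in WT cells and dendritic cell markers to 40.0% to 45.8% in Pfp/Rag2-/- cells and 29.4% to 36.4% in WT cells. Cultured GFP+ cells, which had met no host, also held several of these. Their sums were 67778 to 68836 normalized counts for microglia markers, against 15176 to 22009 in the 6 sorted libraries. They were 13790 to 13888 for dendritic cell, 29356 to 29866 for monocyte-derived macrophage, 4353 to 4488.5 for endothelial and 269 to 301 for B cell markers. T cell markers summed to 193 to 221 in culture, beside 220 in P2 and 253 in P3. Pan-macrophage markers summed to only 97.3 to 121 in culture. So sums of these lists, apart from the pan-macrophage markers, do not count host cells alone. Pericyte and fibroblast markers, among them collagen chains, stood at 200.9% to 229% in Pfp/Rag2-/- cells and 101% to 118% in WT cells, with every Pfp/Rag2-/- library above every WT library. Oligodendrocyte markers were at 257% to 288% in Pfp/Rag2-/- cells and 187% to 263% in WT cells, astrocyte markers at 227% to 234% in Pfp/Rag2-/- cells and 295% to 358% in WT cells and neuron markers at 610.5% to 655% in Pfp/Rag2-/- cells and 563% to 605% in WT cells, so the sorted tumour cells held more of these than GFP- cells did. Erythrocyte markers were at 1.91% to 3.02% in Pfp/Rag2-/- cells and 1.59% to 11.1% in WT cells. Each result below was therefore also computed without each library in turn, without both P1 and W1, and without both P1 and W3; the last was chosen after seeing the data. Genes named below as higher or lower passed in all of these fits and in the other alternatives unless the text gives an exception. In counts of gene lists a number such as 30 (of 40) means 30 members that passed the filter, of 40 in the table, and brackets after a count of 2 or more give the alternatives that move it by more than 1.5 times. Counts of 0 and 1 carry no brackets, since any gene gained or lost moves them that far. All such counts stand beside a background of 15% of genes called higher and 15.3% lower, and a share near it is no result about the list. They include 23 called members, in 16 lists, that passed the filter through 1 host only; without these the lower counts were 9 of 14 for MHC class I, 6 of 8 for MHC class II, 3 of 6 for apolipoprotein L genes, 4 of 17 for chemokines, 2 of 16 for serpins and cystatins and 4 of 8 for arginine and tryptophan genes, and the higher counts were 12 of 36 for matricellular genes, 13 of 40 for matrix proteases, 9 of 27 for Wnt genes, 6 of 24 for Notch and Hedgehog genes, 12 of 45 for axon guidance genes, 8 of 29 for cadherins, 7 of 37 for transmitter receptors and channels, 7 of 22 for long noncoding RNAs, 6 of 14 for pericyte markers and 0 of 10 for astrocyte markers. Fewer cells of a type and less RNA per cell cannot be told apart in such libraries.

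**Figure D1:**
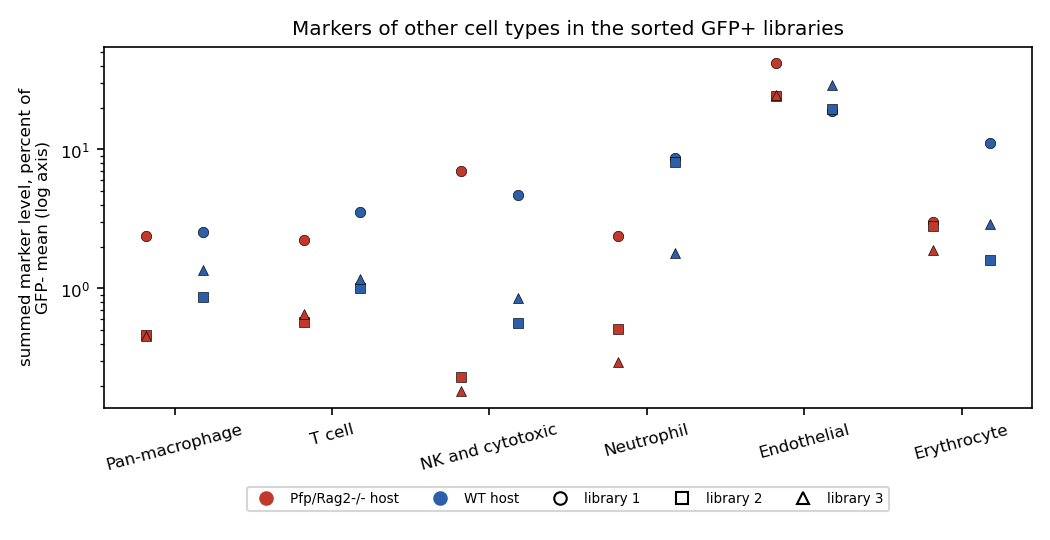
Summed marker levels of 6 cell types in each sorted GFP+ library, as a percent of the mean in GFP- cells of WT tumours (log axis); red, Pfp/Rag2-/- hosts, blue, WT hosts, with a symbol for each library number. Library 1 of each host is the highest for macrophage, T cell and NK markers, and endothelial markers stand at 24.3% to 41.6% in Pfp/Rag2-/- and 18.8% to 29.1% in WT cells.

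In Pfp/Rag2-/- cells 2228 genes were higher (15% of the genes tested) and 2269 lower (15.3%) than in WT cells at an adjusted p under 0.05 (limma, Benjamini-Hochberg over all 14807 genes, 30.4% called in all). At a size of at least 2-fold 611 genes were higher (4.13%) and 448 lower (3.03%). The 3 values of a gene did not overlap between hosts in 25.3% of genes with Pfp/Rag2-/- cells above and in 23.4% with them below. Differences are between means of log2(normalized count + 1), a scale that understates the change of genes at low counts. The median over all genes was 0.02, and 74.6% of genes lay within 0.5 of 0. The lower genes reached farther: among the 113 tested genes that differed by 3 or more on the log2 scale 37 were called higher and 68 lower, while among the 1110 genes between 1 and 2 there were 462 higher and 301 lower. Leaving out P2 left 1137 higher and 1385 lower genes, without P3 they were 1240 and 1427, without W1 1431 and 1507, and without W2 1358 and 1380. In all 6 fits that lack 1 library 1007 genes were called higher and 1189 lower. With the replicate number as a block the counts were 2232 higher and 2356 lower.

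**Figure D2:**
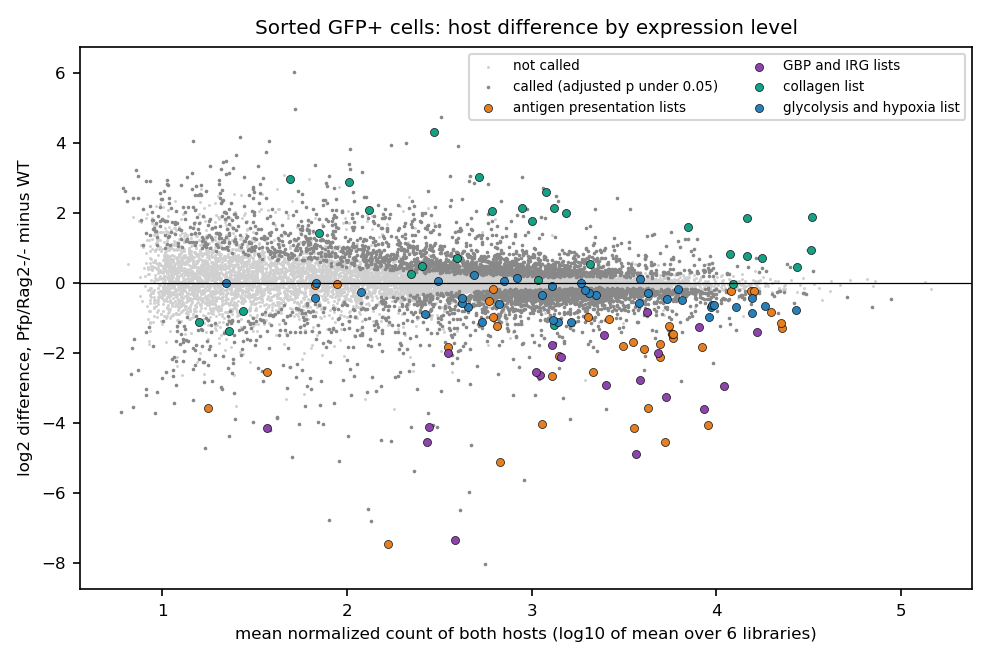
Log2 difference of each of the 14807 genes, Pfp/Rag2-/- minus WT, against the log10 of its mean normalized count over the 6 libraries. Antigen presentation genes (orange) and the GBP and IRG families (purple) lie wholly below 0, most collagen chains (green) lie above 0, and glycolysis and hypoxia genes (blue) lie mostly between 0 and -1.

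The genes that differed most include chains of antigen presentation, interferon-induced GTPases, chemokines, matrix proteins and neural channels and transporters. At the lower end stood Apol6, an apolipoprotein L gene (ENSMUSG00000033576, chromosome 15, 77044729 to 77057106), with 4.57, 1.84 and 3.68 in Pfp/Rag2-/- cells and 993, 1189.5 and 1144 in WT cells (log2 difference -8.04, SE 0.27, adjusted p = 3.57e-05). The next were H2-Eb2, an MHC class II chain, with 5.48, 0 and 0 in Pfp/Rag2-/- cells and 332, 284 and 379 in WT cells (log2 difference -7.47, SE 0.72, adjusted p = 0.000739), and Gbp10, a guanylate-binding protein, with 10.0, 0.918 and 3.68 in Pfp/Rag2-/- cells and 829, 883 and 593 in WT cells (log2 difference -7.36, SE 0.59, adjusted p = 0.000374). In each of the 3 genes the Pfp/Rag2-/- cells were near 0 and every WT library was far above them. At the higher end stood Slc6a3, the dopamine transporter (ENSMUSG00000021609, chromosome 13, 73536747 to 73578672), with 114, 75.3 and 118 in Pfp/Rag2-/- cells and 0, 0 and 2.76 in WT cells (log2 difference 6.03, SE 0.57, adjusted p = 0.000716). Dcn, the matrix proteoglycan decorin, had 98.6, 121 and 85.7 in Pfp/Rag2-/- cells and 2.87, 0.95 and 3.68 in WT cells (log2 difference 4.95, SE 0.39, adjusted p = 0.000352), and Fhl1, a LIM-domain protein of muscle, had 587, 538 and 743 in Pfp/Rag2-/- cells and 12.4, 20.0 and 44.2 in WT cells (log2 difference 4.73, SE 0.42, adjusted p = 0.000521). In all 3 the lowest Pfp/Rag2-/- library was far above the highest WT library. Apol6, H2-Eb2, Slc6a3 and Dcn passed the filter through 1 host only. The other genes among the 15 lowest were Ccl8, Ccl24, Ubd, Arg1, Il12rb1, Apol10b, Ciita, Hrh2, Gbp4, Serping1, H2-Eb1 and Gbp2b, and among the 15 highest Col1a2, Pla2g2f, Miat, Comp, Opalin, Asic4, Chodl, Mgp, Kcnk13, Tmem178, Ramp1 and Ppfia2.

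Regulators of the interferon response differed gene by gene. Of 26 (of 27) receptors, JAK kinases, STATs, IRFs and SOCS proteins 7 were lower and 3 higher in Pfp/Rag2-/- cells (1 without W2, 5 with the replicate block), with a median of -0.01. Socs1, the feedback inhibitor of the JAK kinases, was at 148, 100.1 and 83.8 in Pfp/Rag2-/- cells and 700.1, 1048 and 694 in WT cells (log2 difference -2.88, SE 0.25, adjusted p = 0.000477). Irf1 (ENSMUSG00000018899, chromosome 11, 53770014 to 53778374) was at 1743, 1455 and 1469.9 in Pfp/Rag2-/- cells and 13655, 13213 and 7099 in WT cells (log2 difference -2.81, SE 0.24, adjusted p = 0.000498). Both were several times lower in every Pfp/Rag2-/- library, and W3 was the lowest WT library for both. Stat2, a factor of the type I interferon response, stood at 3174, 2535 and 3076 in Pfp/Rag2-/- cells and 8813, 8964 and 6702 in WT cells (log2 difference -1.47, SE 0.13, adjusted p = 0.00061). Stat3, which carries signals of the interleukin-6 family, had 5658, 4827 and 4503 in Pfp/Rag2-/- cells and 10021, 10965 and 8244 in WT cells (log2 difference -0.96, SE 0.12, adjusted p = 0.00232). Irf2 (-0.73) and Irf9 (-0.29) were lower by less. Of the receptors and kinases upstream, 6 given here were not called: Ifngr1 had a log2 difference of 0.49, Ifngr2 of 0.22, Jak1 of -0.06, Jak2 of -0.34, Ifnar1 of 0.03 and Ifnar2 of -0.15. Tyk2, another JAK kinase, was called in the full fit (limma, adjusted p = 0.0183) but not in every alternative. Its adjusted p was 0.0583 without W1 and 0.0661 without W2. Irf7, a factor of the type I interferon response, went the other way, with 4742, 3004 and 4014 in Pfp/Rag2-/- cells and 1944, 1455 and 2179.7 in WT cells (log2 difference 1.07, SE 0.20, adjusted p = 0.00863). All 3 Pfp/Rag2-/- libraries lay above all 3 WT libraries.

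The start regions of 5 genes are shown, out of those picked by size of difference in chosen lists and among the upward genes. The others picked, Psmb9, H2-M2 and Fhl1, are not printed. Of the 5 shown, 4 are interferon-induced genes that were lower in Pfp/Rag2-/- cells (Irf1, Socs1, Gbp2b and Cd274). The last is the gene with the largest upward difference (Slc6a3). Each is 250 bases before to 50 after the annotated start, read from RefSeq on GRCm38.p6 along the gene's strand. Capitals mark a GAS letter pattern (TTCNNNGAA) or the core of an ISRE (GAAANNGAAA), searched on both strands; matches of the 2 patterns did not overlap in these windows.

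Irf1, chr11:53769764-53770063, plus strand: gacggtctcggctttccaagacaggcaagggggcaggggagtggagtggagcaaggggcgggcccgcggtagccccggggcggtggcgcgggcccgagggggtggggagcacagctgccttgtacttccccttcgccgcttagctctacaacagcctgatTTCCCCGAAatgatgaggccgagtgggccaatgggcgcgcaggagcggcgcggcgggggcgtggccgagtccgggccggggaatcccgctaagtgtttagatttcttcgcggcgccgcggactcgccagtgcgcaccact

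Socs1, chr16:10785487-10785786, minus strand: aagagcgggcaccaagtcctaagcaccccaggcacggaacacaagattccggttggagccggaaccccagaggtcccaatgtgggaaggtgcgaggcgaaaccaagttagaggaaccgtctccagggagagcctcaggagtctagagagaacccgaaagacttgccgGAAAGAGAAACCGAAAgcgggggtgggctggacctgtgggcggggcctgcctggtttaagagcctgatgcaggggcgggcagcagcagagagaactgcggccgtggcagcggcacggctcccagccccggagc

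Gbp2b, chr3:142594597-142594896, plus strand: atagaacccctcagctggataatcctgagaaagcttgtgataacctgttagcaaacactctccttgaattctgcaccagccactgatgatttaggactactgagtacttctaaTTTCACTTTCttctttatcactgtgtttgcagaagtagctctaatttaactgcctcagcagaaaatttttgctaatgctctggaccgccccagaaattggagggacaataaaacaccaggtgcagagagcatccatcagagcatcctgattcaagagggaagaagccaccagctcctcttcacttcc

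Cd274, chr19:29367188-29367487, plus strand: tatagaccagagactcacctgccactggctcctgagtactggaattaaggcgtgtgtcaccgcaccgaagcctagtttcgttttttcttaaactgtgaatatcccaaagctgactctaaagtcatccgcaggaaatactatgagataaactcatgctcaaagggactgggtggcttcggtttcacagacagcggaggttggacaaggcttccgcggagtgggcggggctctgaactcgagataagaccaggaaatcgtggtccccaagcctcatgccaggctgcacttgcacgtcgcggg

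Slc6a3, chr13:73536497-73536796, plus strand: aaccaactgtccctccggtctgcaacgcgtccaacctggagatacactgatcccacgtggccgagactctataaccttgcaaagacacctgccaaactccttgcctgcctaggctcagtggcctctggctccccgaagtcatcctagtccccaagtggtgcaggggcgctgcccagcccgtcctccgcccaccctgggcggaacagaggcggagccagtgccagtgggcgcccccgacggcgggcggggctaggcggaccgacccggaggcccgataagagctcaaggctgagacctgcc

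The window of Irf1 shown held 1 GAS match, which begins 90 bases before the start, and that of a second annotated start of the gene (chr11:53770223-53770522) held neither pattern. Socs1 held 2 overlapping ISRE matches, the first 83 bases before the start, and Gbp2b held 1 ISRE match 137 bases before the start. Cd274 and Slc6a3 held neither pattern, nor did the windows of Psmb9, H2-M2 and Fhl1. Gbp10, Gbp4 and Dcn are not shown. Windows on chromosome 18 were left out of all these shares. Over the other 32851 windows 8.30% held a GAS match and 3.44% an ISRE match. Among windows of genes called lower by at least 2-fold the shares were 11.1% and 11.7% (369 windows), against 4.66% and 1.08% among genes called higher by at least 2-fold (558 windows) and 6.62% and 3.25% over genes tested (13883 windows). A letter match is a description of the sequence and shows no binding.

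MHC class I genes, which show peptides to killer T cells, were lower in Pfp/Rag2-/- cells. Of 15 (of 18) members 10 were lower and none higher, with a median of -1.16, against 15.3% lower over all genes. H2-K1, a classical class I chain, was at 16979, 10910 and 12111 in Pfp/Rag2-/- cells and 34725, 32317 and 29499 in WT cells (log2 difference -1.29, SE 0.16, adjusted p = 0.00201). B2m, the light chain that all class I molecules share, had 16476, 11542 and 13808 in Pfp/Rag2-/- cells and 33202, 30331 and 28795 in WT cells (log2 difference -1.16, SE 0.13, adjusted p = 0.00134). P1 was the highest Pfp/Rag2-/- library for both, and still below every WT library. The non-classical chain H2-T23, the ligand of an inhibitory NK receptor, stood at 3769, 2604 and 3587 in Pfp/Rag2-/- cells and 7951, 7318 and 8059.6 in WT cells (log2 difference -1.24, SE 0.14, adjusted p = 0.00119). H2-Q4 (-1.76), H2-M3 (-1.84), H2-T22 (-1.05), H2-T10 (-0.98) and H2-D1 (-0.83) were lower as well. Nlrc5, their transactivator, was at 2112, 1682 and 1790.4 in Pfp/Rag2-/- cells and 8245, 8461 and 7512 in WT cells (log2 difference -2.12, SE 0.09, adjusted p = 3.57e-05). H2-M2, which passed the filter only through the WT libraries, had the largest difference of the list but at few counts, with 2.74, 0.918 and 0.921 in Pfp/Rag2-/- cells and 65.1, 14.3 and 22.1 in WT cells (log2 difference -3.57, SE 0.62, adjusted p = 0.0065), and its mean in GFP- cells was 2249.8. H2-Q6 (log2 -0.51) and H2-Q7 (-1.23) were not called. Class I genes are near-identical in places, so reads may have been split among them.

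RNA of genes that supply peptides to class I molecules was lower in the full fit. All 13 of 13 genes of the immunoproteasome and of peptide loading were lower in Pfp/Rag2-/- cells, with a median of -1.58. Psmb9, an interferon-induced proteasome subunit, had 731, 544 and 621 in Pfp/Rag2-/- cells and 3784, 3562 and 3712 in WT cells (log2 difference -2.55, SE 0.10, adjusted p = 3.57e-05). Its partners Psmb8 (-1.88) and Psmb10 (-1.81) and the proteasome activator subunits Psme1 (-1.58) and Psme2 (-1.47) were lower too. Tap1, a subunit of the peptide transporter of the endoplasmic reticulum, stood at 4044, 3211 and 3656 in Pfp/Rag2-/- cells and 13332, 14181 and 11726 in WT cells (log2 difference -1.85, SE 0.10, adjusted p = 9.74e-05). Tap2 (-1.69), the loading factors Tapbp (-1.47) and Tapbpl (-2.09) and the trimming peptidase Erap1 (-0.97) followed. In these genes the hosts did not overlap. The general chaperones Calr (-0.25), Pdia3 (-0.24) and Canx (-0.24) were lower by less than 0.3 on the log2 scale. Calr was not called without P2, P3 or W1 (adjusted p = 0.0578 to 0.079) nor with quantile normalization or all 18 libraries in 1 fit, Canx was not called without P1, P2, P3 or W2 (adjusted p = 0.0692 to 0.0882) nor with quantile normalization or all 18 libraries in 1 fit, and Pdia3 was not called without both P1 and W1 nor with quantile normalization.

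MHC class II genes, which show peptides to helper T cells, were lower in Pfp/Rag2-/- cells by large factors, and P1 carried much of what was left. Of 9 (of 11) members 7 were lower and none higher, with a median of -4.06; the lower count was 4 without P2, P3, W1 or W2 or with robust eBayes, edgeR or DESeq2. Ciita, the class II transactivator, was at 85.8, 21.1 and 25.8 in Pfp/Rag2-/- cells and 1329, 1507 and 1059 in WT cells (log2 difference -5.11, SE 0.49, adjusted p = 0.000722). H2-DMa, a chain of the peptide-exchange molecule, had 253, 97.4 and 86.6 in Pfp/Rag2-/- cells and 2268, 2149 and 1974 in WT cells (log2 difference -4.04, SE 0.37, adjusted p = 0.000654), and H2-DMb1, its partner, had 531, 277 and 294 in Pfp/Rag2-/- cells and 2349, 2249.9 and 2072 in WT cells (log2 difference -2.66, SE 0.23, adjusted p = 0.000524). P1 was the highest Pfp/Rag2-/- library in all 3, without reaching a WT library. Cd74, the invariant chain, stood at 6204, 399.5 and 329.7 in Pfp/Rag2-/- cells and 18993, 15450 and 12940 in WT cells (log2 difference -4.06, SE 1.04, adjusted p = 0.0257). H2-Eb1 had 3451, 142 and 122 in Pfp/Rag2-/- cells and 10916, 8981 and 7992 in WT cells (log2 difference -4.55, SE 1.19, adjusted p = 0.0274), and H2-Aa had 2867, 127 and 107 in Pfp/Rag2-/- cells and 7626, 5589 and 5229.7 in WT cells (log2 difference -4.15, SE 1.17, adjusted p = 0.0354). In these genes P2 and P3 were far below every WT library, and P1 lay between them and the WT libraries. Cd74 was not called without P2, P3, W1 or W2 (adjusted p = 0.0757 to 0.0895) nor with robust eBayes, edgeR or DESeq2. H2-Eb1 was not called without P2, P3, W1 or W2 (adjusted p = 0.0781 to 0.0937) nor with robust eBayes, edgeR or DESeq2, and H2-Aa was not called without P2, P3, W1, W2 or W3 (adjusted p = 0.0594 to 0.115) nor with robust eBayes, edgeR or DESeq2. H2-Ab1 had 4397, 231 and 185 in Pfp/Rag2-/- cells and 8765, 5909 and 6055 in WT cells and was not called (log2 -3.56, adjusted p = 0.0503). The GFP- mean of Cd74 was 256430, and the pan-macrophage markers were at 2.38% of their GFP- level in P1 against 0.455% to 0.462% in P2 and P3; their part in the class II values of P1 was not tested. H2-Eb2, named above, had a GFP- mean of 79.8, below that of its WT GFP+ libraries.

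Families of interferon-induced GTPases, which attack vacuoles that hold microbes, were lower in Pfp/Rag2-/- cells in every member measured. All 11 of 11 guanylate-binding proteins were lower, with a median of -2.91, and so were all 9 of 9 (of 10) immunity-related GTPases, with a median of -2.64. All of these members were called in every alternative. Gbp2 was at 1435, 1030.5 and 1428 in Pfp/Rag2-/- cells and 16469, 18426 and 12402 in WT cells (log2 difference -3.60, SE 0.18, adjusted p = 6.59e-05). Gbp4 had 371, 161 and 211 in Pfp/Rag2-/- cells and 7673, 8222 and 5325 in WT cells (log2 difference -4.90, SE 0.31, adjusted p = 0.000159), and Gbp2b had 38.4, 15.6 and 14.7 in Pfp/Rag2-/- cells and 535, 664 and 368 in WT cells (log2 difference -4.55, SE 0.39, adjusted p = 0.000498). Pfp/Rag2-/- cells were far lower in these 3 genes, and W3 was the lowest WT library in each. Gbp5 (-2.91), Gbp11 (-2.0), Gbp6 (-1.78) and Gbp9 (-1.48) differed by less, and Gbp3 (-1.26) and Gbp7 (-0.82) by least. Members of this family share sequence and some overlap on chromosome 5, so counts of single members are uncertain. Igtp stood at 2640.1, 2309 and 2649 in Pfp/Rag2-/- cells and 19594, 22014 and 16814 in WT cells (log2 difference -2.94, SE 0.11, adjusted p = 3.57e-05), and Iigp1 at 1055, 795 and 1169.7 in Pfp/Rag2-/- cells and 9523, 11727 and 7896 in WT cells (log2 difference -3.27, SE 0.18, adjusted p = 9.74e-05). Irgm1, the regulator of the family, had 9910, 8121 and 9327 in Pfp/Rag2-/- cells and 24357, 25706 and 22195 in WT cells (log2 difference -1.40, SE 0.09, adjusted p = 0.000181). The hosts did not overlap in any of the 9. Igtp and Irgm1 were also higher in WT GFP+ cells than in GFP- cells, whose means were 3367 and 5139.5. Tgtp1 (-2.54) and Tgtp2 (-2.64) are near-identical copies and cannot be counted apart with certainty.

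Apolipoprotein L genes, intracellular relatives of a trypanosome-killing serum protein, split within the family. Of 7 (of 13) members 4 were lower and 1 higher in Pfp/Rag2-/- cells. Apol6 is given above, and Apol10b was at 14.6, 9.18 and 7.37 in Pfp/Rag2-/- cells and 428, 485 and 445 in WT cells (log2 difference -5.36, SE 0.25, adjusted p = 4.89e-05). Apol6 and Apol10b had GFP- means of 54 and 32.7 and cultured means of 1.26 and 0.951, below every WT GFP+ library. Apol9b, by contrast, had 1794, 1419 and 1644 in Pfp/Rag2-/- cells and 979, 998 and 1220.2 in WT cells (log2 difference 0.60, SE 0.12, adjusted p = 0.00951), with every Pfp/Rag2-/- library above every WT library. It was not called without both P1 and W1 nor with all 18 libraries in 1 fit, and it shares much of its sequence with Apol9a. Ubd, which encodes a ubiquitin-like modifier induced by interferon-gamma, stood at 3.65, 0.918 and 1.84 in Pfp/Rag2-/- cells and 289, 271 and 216 in WT cells (log2 difference -6.46, SE 0.36, adjusted p = 9.74e-05).

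**Figure D3:**
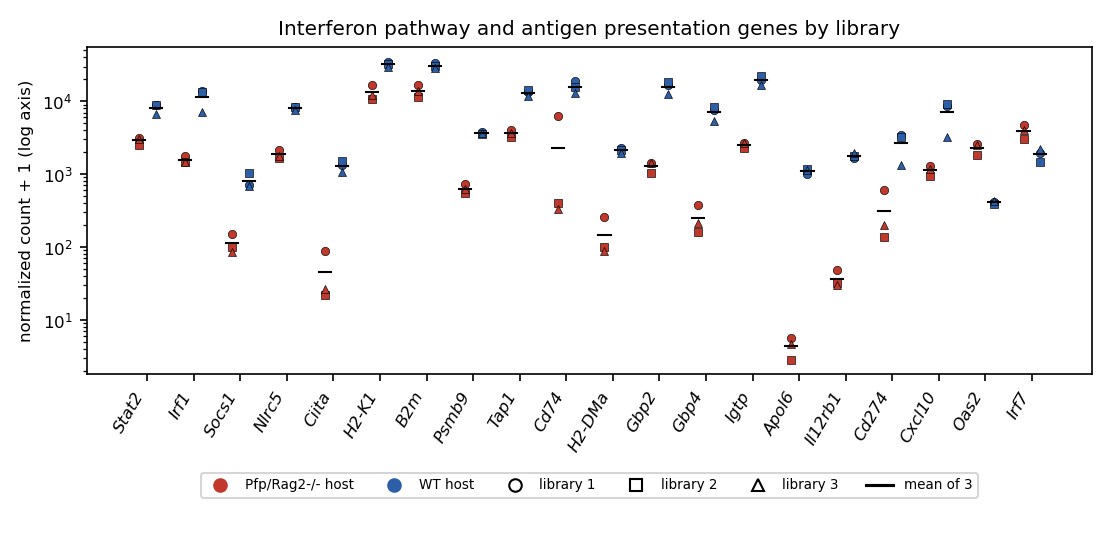
Normalized counts plus 1 of 20 interferon pathway and antigen presentation genes in each library (log axis); red, Pfp/Rag2-/- hosts, blue, WT hosts, with a symbol for each library number and a bar at the mean of 3. All but Oas2 and Irf7 are lower in Pfp/Rag2-/- cells, and P1 (red circle) stands apart in Cd74, H2-DMa and Ciita.

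Antiviral genes of the type I interferon response went both ways. Of 31 (of 32) Oas, Ifit, Mx and related genes 8 were higher in Pfp/Rag2-/- cells (5 without P3) and 4 lower (2 without W1), with a median of 0.11. Oas2, a sensor of double-stranded RNA, was at 2625, 1814 and 2489.5 in Pfp/Rag2-/- cells and 415, 388 and 424 in WT cells (log2 difference 2.48, SE 0.14, adjusted p = 9.74e-05). Ifi27l2a had 4389, 4146 and 3969 in Pfp/Rag2-/- cells and 1934, 1493 and 2344 in WT cells (log2 difference 1.14, SE 0.15, adjusted p = 0.00253). Every Pfp/Rag2-/- library was above every WT library in both. Oas1b (0.61) and Oas1g (0.65) were higher as well, as paralogs whose reads may be shared. Ifit2, whose product binds viral RNA, was lower, with 1651, 1264 and 1522 in Pfp/Rag2-/- cells and 2363, 2634 and 2223 in WT cells (log2 difference -0.71, SE 0.11, adjusted p = 0.00444), and so was Ifi27 (-0.73). Log2 differences of Mx1 (0.04), Ifit3 (0.04), Isg15 (0.12), Rsad2 (0.25) and Oasl1 (1.17) did not pass the test.

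Sensors of cytosolic DNA and RNA were lower or not called, apart from Ddx58. Of 18 (of 19) members 7 were lower in Pfp/Rag2-/- cells and 1 higher. Samhd1, which breaks down nucleotides, stood at 2226, 1668 and 1798 in Pfp/Rag2-/- cells and 4086, 3909 and 3439 in WT cells (log2 difference -1.01, SE 0.12, adjusted p = 0.00147). Tmem173, which encodes STING, had 462, 470.3 and 437 in Pfp/Rag2-/- cells and 821, 772 and 687 in WT cells (log2 difference -0.73, SE 0.08, adjusted p = 0.00142). Tlr3 (-0.92), the RNA sensor of endosomes, Zbp1 (-0.71), a sensor of Z-form nucleic acids, and Cgas (-0.46), which makes the messenger for STING, were lower too, with no overlap between hosts. Ddx58, which encodes the RNA helicase RIG-I, had 6404, 5556 and 6276 in Pfp/Rag2-/- cells and 4568, 5036 and 4987 in WT cells (log2 difference 0.32). It was not called without P3 (adjusted p = 0.0633) or W1 (adjusted p = 0.0512). Among interferon-linked ADP-ribosyltransferases 7 of 8 genes were lower, with a median of -0.56. Parp14 was at 1659, 1054 and 1224 in Pfp/Rag2-/- cells and 2952, 3436 and 2311 in WT cells (log2 difference -1.15, SE 0.20, adjusted p = 0.00622), and Dtx3l, the ubiquitin ligase that works with Parp9, at 1058, 844 and 946 in Pfp/Rag2-/- cells and 1850.3, 2348 and 1607 in WT cells (log2 difference -1.01, SE 0.15, adjusted p = 0.00348). Parp11 (-0.83), Parp3 (-0.59), Parp10 (-0.53) and Parp9 (-0.48) were also lower.

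Ligands that tumour cells show to lymphocytes differed in a few members. Of 16 (of 20) checkpoint and costimulatory ligands 3 were lower in Pfp/Rag2-/- cells and 2 higher (1 without P1, P3, W1 or W2, without both P1 and W3 or with no filter, a filter at 50 or edgeR, 0 without both P1 and W1 or with all 18 libraries in 1 fit). Cd274, which encodes the inhibitory ligand PD-L1, stood at 596, 136 and 196 in Pfp/Rag2-/- cells and 3419.9, 3239 and 1327 in WT cells (log2 difference -3.28, SE 0.59, adjusted p = 0.00758). P1 was the highest Pfp/Rag2-/- library and W3 the lowest WT library, and the hosts did not overlap. The GFP- mean of Cd274 was 22113 and the cultured mean 91.5. Tnfrsf14, a receptor with both stimulating and inhibiting partners, had 41.1, 15.6 and 36.8 in Pfp/Rag2-/- cells and 199, 178 and 182 in WT cells (log2 difference -2.65, SE 0.35, adjusted p = 0.00253). Pvr, a ligand of the NK and T cell receptors DNAM-1 and TIGIT, had 2079, 1767 and 1839 in Pfp/Rag2-/- cells and 3202, 3818 and 2794 in WT cells (log2 difference -0.78, SE 0.12, adjusted p = 0.00422). Tnfsf18, the ligand of the costimulatory receptor GITR, was at 43.8, 37.7 and 35.9 in Pfp/Rag2-/- cells and 14.4, 15.2 and 20.3 in WT cells (log2 difference 1.20, SE 0.24, adjusted p = 0.0116) and was not called without both P1 and W1 nor with all 18 libraries in 1 fit. Cd47, which restrains phagocytes, had a log2 difference of -0.14 that did not pass the test. Among 9 (of 10) killer-cell ligands and adhesion genes 4 were lower (2 without P2, P3 or W1 or with no filter), among them Raet1d, a ligand of the NK receptor NKG2D, with 229, 244 and 275 in Pfp/Rag2-/- cells and 432, 410.4 and 492 in WT cells (log2 difference -0.83, SE 0.11, adjusted p = 0.00248).

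Secreted signals to immune cells were lower or not called. Of 19 (of 26) chemokines 6 were lower in Pfp/Rag2-/- cells (10 without both P1 and W3) and none higher. Cxcl10, an interferon-induced attractant of T cells, was at 1282, 933 and 1168 in Pfp/Rag2-/- cells and 8707, 9150.5 and 3204 in WT cells (log2 difference -2.50, SE 0.39, adjusted p = 0.00447). Its relatives Cxcl9, with 26.5, 2.76 and 4.61 in Pfp/Rag2-/- cells and 144, 113 and 155 in WT cells (log2 difference -4.04, SE 0.70, adjusted p = 0.00646), and Cxcl11, with 23.7, 11.9 and 17.5 in Pfp/Rag2-/- cells and 98.6, 104 and 68.1 in WT cells (log2 difference -2.31, SE 0.31, adjusted p = 0.00253), bind the same receptor. W3 was the lowest WT library for Cxcl10 and Cxcl11, and no library of 1 host entered the range of the other. Ccl8 and Ccl24, which attract monocytes and eosinophils, were near 0 in Pfp/Rag2-/- cells. Ccl8 had 6.39, 0 and 0 in Pfp/Rag2-/- cells and 521, 125 and 158 in WT cells (log2 difference -6.81, SE 0.90, adjusted p = 0.00249), and Ccl24 had 0, 0 and 0 in Pfp/Rag2-/- cells and 355, 44.7 and 78.3 in WT cells (log2 difference -6.77, SE 0.73, adjusted p = 0.00112), a fitted difference that depends on the pseudocount because all 3 Pfp/Rag2-/- libraries are at 0. Against a floor of 3 reads per library Ccl24 was at least 57.9-fold lower in Pfp/Rag2-/- cells. Their GFP- means were 10869 and 6848, and W1 was the highest library for both; the part of host cells in them was not tested.

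Of 28 (of 35) cytokines and cytokine receptors 12 were lower and 1 higher in Pfp/Rag2-/- cells, with a median of -0.78. Il12rb1, a receptor chain for interleukins 12 and 23 (ENSMUSG00000000791, chromosome 8, 70808449 to 70821424), stood at 47.5, 31.2 and 28.6 in Pfp/Rag2-/- cells and 1669, 1753 and 1933 in WT cells (log2 difference -5.63, SE 0.19, adjusted p = 3.57e-05). WT GFP+ cells were above the GFP- mean of 1222 and the cultured mean of 15.2. Il18bp, which neutralises interleukin 18, had 174, 134 and 185 in Pfp/Rag2-/- cells and 917, 815 and 829.7 in WT cells (log2 difference -2.38, SE 0.13, adjusted p = 9.74e-05). Csf1, the growth factor of macrophages, had 824, 459 and 514 in Pfp/Rag2-/- cells and 1908, 1904 and 1397 in WT cells (log2 difference -1.57, SE 0.23, adjusted p = 0.00369), and Osmr, the receptor of oncostatin M, had 397, 474 and 450.4 in Pfp/Rag2-/- cells and 1142, 1483 and 884 in WT cells (log2 difference -1.38, SE 0.18, adjusted p = 0.0024). In all 4 genes the lowest WT library was above the highest Pfp/Rag2-/- library. Il15ra (-1.23), Il13ra1 (-1.23), Lif (-1.14), Il33 (-1.01) and Mif (-0.90) were lower as well, and Lifr, the receptor of Lif, was higher (0.59).

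Complement genes, many of which interferon-gamma induces, were lower in Pfp/Rag2-/- cells in 6 of 17 (of 21) members (11 without P1, 10 without both P1 and W3) and higher in 1. Serping1, the inhibitor of the first component, was at 63, 34 and 20.3 in Pfp/Rag2-/- cells and 919, 962 and 814 in WT cells (log2 difference -4.63, SE 0.36, adjusted p = 0.000352). C4b, the fourth component, had 7875, 6571 and 7311 in Pfp/Rag2-/- cells and 17701, 19064 and 18653 in WT cells (log2 difference -1.35, SE 0.08, adjusted p = 9.74e-05), and C1ra, a protease of the first component, had 111, 92.8 and 99.5 in Pfp/Rag2-/- cells and 683, 738 and 664 in WT cells (log2 difference -2.77, SE 0.10, adjusted p = 3.57e-05). Each was clearly parted between hosts. C2 (-1.77) and C1s1 (-1.29) were also lower. For Serping1, C4b, C2 and C1s1 the GFP- means of 176, 6813, 141 and 68.2 lay below the WT GFP+ values, so WT tumour cells held the highest levels of the sorted groups. Other protease inhibitors differed in part: of 18 (of 20) serpins and cystatins 4 were lower (2 without P2 or P3) and 1 higher. Serpina3f, an interferon-induced serpin of mice, had 9.13, 1.84 and 0 in Pfp/Rag2-/- cells and 91, 127 and 74.6 in WT cells (log2 difference -4.97, SE 0.79, adjusted p = 0.00477), and Serpinb1a, an inhibitor of neutrophil proteases, had 53, 42.3 and 47 in Pfp/Rag2-/- cells and 22, 13.3 and 16.6 in WT cells (log2 difference 1.42, SE 0.26, adjusted p = 0.00794).

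Many genes of macrophages form a group of their own, since their GFP- means exceed the GFP+ values many times over. Of 22 pan-macrophage markers, all of which passed the filter, none was called, with a median of -0.77; the number lower was 7 without P1 or without both P1 and W3, 8 without both P1 and W1 or with the replicate block. Of 13 (of 15) markers of monocyte-derived macrophages 4 were lower. These include Fn1, given below, whose GFP- mean is not many times its WT values. Arg1, which breaks down arginine, stood at 18.3, 7.35 and 9.21 in Pfp/Rag2-/- cells and 1672, 375 and 658 in WT cells (log2 difference -5.98, SE 0.56, adjusted p = 0.000682) with a GFP- mean of 44586. Chil3, a chitinase-like protein of such cells, had 21.9, 3.67 and 5.53 in Pfp/Rag2-/- cells and 625, 66.5 and 192 in WT cells (log2 difference -4.50, SE 0.89, adjusted p = 0.0108), and Mrc1, the mannose receptor, had 78.5, 30.3 and 36.8 in Pfp/Rag2-/- cells and 722, 189 and 380.3 in WT cells (log2 difference -3.04, SE 0.53, adjusted p = 0.00696). All 3 were highest in W1, the WT library with the most macrophage RNA, and W2 and W3 were still above every Pfp/Rag2-/- library. P1 held nearly as much summed macrophage RNA as W1 (2.38% against 2.56%), with 18.3 normalized counts of Arg1 against 1672 in W1. In unsorted tumours Arg1 averaged 8.65 in Pfp/Rag2-/- and 2111 in WT hosts. Pan-macrophage markers there summed to 14087 to 16068 in Pfp/Rag2-/- and 46188 to 50619 in WT tumours. GFP- cells were sequenced from WT tumours only, so the Arg1 level of Pfp/Rag2-/- macrophages was not measured. The part of carried-over cells in these genes was not tested. Of 9 (of 15) genes of arginine and tryptophan use 5 were lower (3 without P2). Besides Arg1 these included Odc1, the first enzyme of polyamine synthesis, with 5084, 4468 and 4802 in Pfp/Rag2-/- cells and 9684, 11259 and 7459 in WT cells (log2 difference -0.97, SE 0.14, adjusted p = 0.0038), and Wars, an interferon-induced tryptophanyl-tRNA synthetase (-1.07). Lcn2, an iron-binding protein also known from neutrophils, was at 17.4, 21.1 and 13.8 in Pfp/Rag2-/- cells and 411, 774 and 100.4 in WT cells (log2 difference -4.13, SE 0.68, adjusted p = 0.00544), above its GFP- mean of 77.5 in each WT library. Hrh2, a histamine receptor, had 11.9, 1.84 and 2.76 in Pfp/Rag2-/- cells and 201.1, 172 and 154 in WT cells (log2 difference -5.09, SE 0.55, adjusted p = 0.00114), below its GFP- mean of 557.

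Genes of the lysosome, where cells break down proteins and lipids, were called lower in 8 of 20 (of 21) members (3 without P2, 4 without P3 or W2, 5 with quantile normalization) and higher in 1. Ctsb, a cysteine protease, was at 5152, 3920.1 and 3583 in Pfp/Rag2-/- cells and 8295, 6448 and 7182 in WT cells (log2 difference -0.80, SE 0.15, adjusted p = 0.0084), and Ctsl, its relative, at 2561, 2499 and 2513 in Pfp/Rag2-/- cells and 4341, 4422 and 3556 in WT cells (log2 difference -0.69, SE 0.09, adjusted p = 0.00193). The hosts did not overlap in either. Ctsf, another cysteine protease, had 236, 228 and 233 in Pfp/Rag2-/- cells and 74.7, 66.5 and 94.9 in WT cells (log2 difference 1.56, SE 0.16, adjusted p = 0.000856), with every Pfp/Rag2-/- library above every WT library. Ctss, a cathepsin of macrophages, had 2617, 553 and 565 in Pfp/Rag2-/- cells and 3605, 1061 and 2018 in WT cells and was not called (log2 -1.08, adjusted p = 0.266), with P1 and W1 the highest of their hosts.

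Cell death genes were lower in Pfp/Rag2-/- cells in 15 of 31 (of 32) members, and none was higher (median -0.42). Casp1, the inflammasome caspase, was at 112, 78.1 and 95.8 in Pfp/Rag2-/- cells and 560.2, 478 and 430.1 in WT cells (log2 difference -2.35, SE 0.17, adjusted p = 0.000244). Gsdmd, the pore protein it cleaves, had 751, 586 and 765 in Pfp/Rag2-/- cells and 1319, 1230.4 and 1227 in WT cells (log2 difference -0.85, SE 0.11, adjusted p = 0.00211). Casp4 (-1.13) and Casp12 (-1.50), which lie near Casp1 on chromosome 9, were lower too. Genes of necroptosis were among them, with Mlkl, its executioner, at 1000, 936 and 1108 in Pfp/Rag2-/- cells and 2477, 2307 and 2200 in WT cells (log2 difference -1.20, SE 0.08, adjusted p = 0.00018) and Ripk3 (-1.11), the kinase upstream of it. Of the death ligand and receptor genes, Tnfsf10, which encodes TRAIL, had 131, 90.9 and 146 in Pfp/Rag2-/- cells and 321, 411 and 320.5 in WT cells (log2 difference -1.53, SE 0.20, adjusted p = 0.00238) and Tnfrsf1a, a receptor of tumour necrosis factor, differed by -0.63. Bid (-1.07) and Bak1 (-0.65), of the mitochondrial route, were also lower. Log2 differences of Casp8 (-0.19), Bax (0.09), Bcl2 (0.08), Mcl1 (-0.19) and Xiap (0.04) did not pass the test. In the p53 pathway 8 of 23 (of 25) members were lower (4 without P2, P3 or W2, 5 without W1 or with no filter) and 4 higher (2 without P2 or P3, without both P1 and W1 or with all 18 libraries in 1 fit). Trp53 itself was lower (-0.45), as was the cell cycle inhibitor Cdkn2b (-0.80), while Cdkn1a, which encodes p21, was at 3999, 3225 and 3653 in Pfp/Rag2-/- cells and 2756, 2144 and 1958 in WT cells (log2 difference 0.67, SE 0.14, adjusted p = 0.0114).

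Genes of proliferation were slightly lower in Pfp/Rag2-/- cells, and their counts depend on the fit. Of 40 DNA replication genes 24 were lower and 1 higher, with a median of -0.24; the lower count was as few as 6 without both P1 and W1. Of 40 mitosis genes 23 were lower and none higher, with a median of -0.27; it was 14 without both P1 and W1, 3 with all 18 libraries in 1 fit. Rpa2, which coats single-stranded DNA, had 1169, 1199.5 and 1088 in Pfp/Rag2-/- cells and 1705, 1628 and 1554 in WT cells (log2 difference -0.50, SE 0.06, adjusted p = 0.00187), and Mcm3, a subunit of the replicative helicase, differed by -0.40. Prc1, which bundles microtubules of the dividing spindle, had 2169, 2106 and 2401 in Pfp/Rag2-/- cells and 3582, 3863 and 3615 in WT cells (log2 difference -0.73, SE 0.06, adjusted p = 0.000514), and Cdca8 differed by -0.50. Ccne2, a cyclin of the entry into replication, was higher, at 864, 658 and 749.7 in Pfp/Rag2-/- cells and 449, 439 and 536 in WT cells (log2 difference 0.67, SE 0.12, adjusted p = 0.00823). Mki67 (-0.10), Ccnb1 (-0.14) and Ccna2 (-0.15) did not pass the test.

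Glycolysis and hypoxia genes were lower in 25 of 38 members, with none higher and a median of -0.46. Slc2a1, the main glucose transporter, was at 6059, 6958 and 5612 in Pfp/Rag2-/- cells and 11804, 11646 and 13032 in WT cells (log2 difference -0.97, SE 0.09, adjusted p = 0.000617). Hk2, the enzyme that traps glucose, had 896, 902 and 743 in Pfp/Rag2-/- cells and 2063, 1741 and 1488 in WT cells (log2 difference -1.05, SE 0.13, adjusted p = 0.00203), and Aldoa, an enzyme of the middle of the pathway, had 10961, 11652 and 11036 in Pfp/Rag2-/- cells and 19924, 20736 and 19952 in WT cells (log2 difference -0.85, SE 0.05, adjusted p = 0.000146). The hosts did not overlap in any of these. Pkm (-0.77), Tpi1 (-0.69), Eno1 (-0.69), Gapdh (-0.67), Pgk1 (-0.65), Gpi1 (-0.63) and Ldha (-0.42), which catalyse further steps, were lower by similar amounts. Car9, a carbonic anhydrase that marks hypoxic cells, had 276, 475 and 285 in Pfp/Rag2-/- cells and 689, 736 and 761 in WT cells (log2 difference -1.12, SE 0.20, adjusted p = 0.0078). Some other genes that low oxygen induces, Ndrg1 (-0.02), Egln3 (0.04), Pdk1 (-0.10) and Ddit4 (-0.17), did not pass the test. They do not stand for the whole list, in which 25 members were lower and 13 not called.

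Chaperone genes were lower in Pfp/Rag2-/- cells in 18 of 27 members, with none higher (median -0.34). Cryab, a small heat shock protein of glia and muscle, stood at 451, 501 and 518 in Pfp/Rag2-/- cells and 1762, 1911 and 1402 in WT cells (log2 difference -1.78, SE 0.12, adjusted p = 0.000211). Hsph1, an exchange factor for the Hsp70 chaperones, had 3074, 3322 and 3245 in Pfp/Rag2-/- cells and 10149, 8491 and 6006 in WT cells (log2 difference -1.32, SE 0.17, adjusted p = 0.00248), and Bag3, their co-chaperone, had 1225, 1328 and 1334 in Pfp/Rag2-/- cells and 4039, 3705 and 2239 in WT cells (log2 difference -1.32, SE 0.21, adjusted p = 0.00464). W3 was the lowest WT library in all 3 and remained above the Pfp/Rag2-/- libraries. Hsp90aa1 (-0.50), Dnaja1 (-0.47), Hspe1 (-0.45) and Hspa8 (-0.37) were lower by smaller amounts. In the amino acid stress response, which Atf4 drives, 10 of 27 genes were lower (as few as 2 without P2 and as many as 16 without W3) and 3 higher (1 without P1 or P3, without both P1 and W1, without both P1 and W3 or with no filter, 0 without P2 or with all 18 libraries in 1 fit). Phgdh (-0.54) and Psat1 (-0.51), the first enzymes of serine synthesis, were called in every alternative. Respiratory and ribosomal genes were called in both directions by small amounts. Of 45 nuclear genes of oxidative phosphorylation 7 were higher and 11 lower, and of 51 ribosomal protein genes 7 were higher and 10 lower. The shares were 15.6% higher and 24.4% lower for respiratory and 13.7% higher and 19.6% lower for ribosomal genes, against 15% and 15.3% over all genes, so the higher counts were near the background. Over the alternatives, among respiratory genes as few as 2 without P3 or W2, without both P1 and W1 or with all 18 libraries in 1 fit and as many as 12 with quantile normalization were higher, and as few as 0 without both P1 and W1 lower. Among ribosomal genes as few as 1 with all 18 libraries in 1 fit and as many as 14 with quantile normalization were higher, and as few as 1 without P2, P3 or W2 or without both P1 and W1 and as many as 20 without W3 lower.

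**Figure D4:**
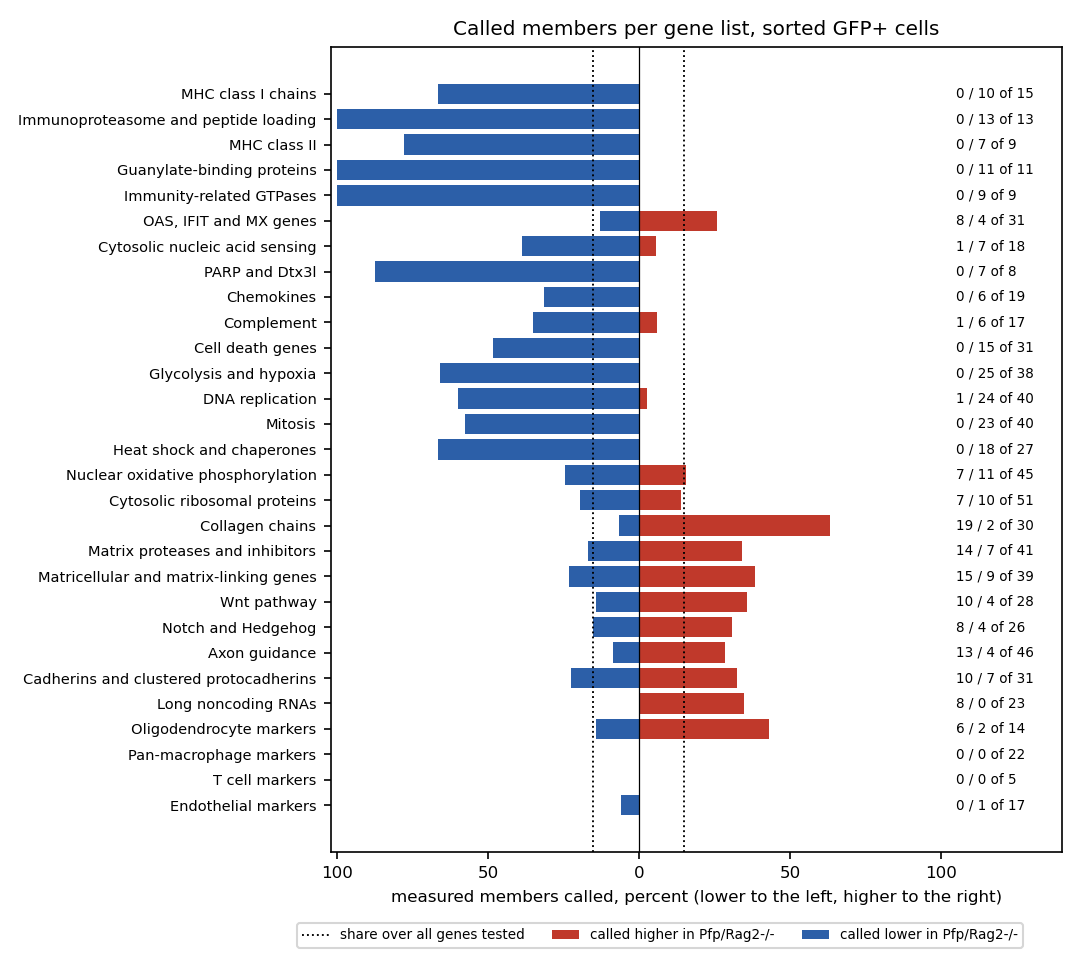
Percent of the measured members of 29 gene lists called lower (blue, to the left) and higher (red, to the right) in Pfp/Rag2-/- cells; the numbers at the right give higher, lower and measured members, and dotted lines mark the share over all genes tested (15.3% lower, 15% higher). All measured members of the immunoproteasome, GBP and IRG lists were lower, and collagen chains had the largest higher share shown, 19 of 30.

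Secreted phospholipases of group 2, which cut membrane phospholipids, moved upward. Pla2g2f stood at 408, 373 and 402 in Pfp/Rag2-/- cells and 18.2, 25.7 and 28.5 in WT cells (log2 difference 4.00, SE 0.19, adjusted p = 5.41e-05), and Pla2g2e at 42, 45.9 and 57.1 in Pfp/Rag2-/- cells and 16.3, 14.3 and 11.1 in WT cells (log2 difference 1.74, SE 0.26, adjusted p = 0.00375). Both were low in GFP- cells (means 1.39 and 2.86) and in culture (0.633 and 2.84). Pla2g16, an intracellular phospholipase, went the other way, with 211, 176 and 169 in Pfp/Rag2-/- cells and 1170.3, 1167 and 1042 in WT cells (log2 difference -2.60, SE 0.11, adjusted p = 3.57e-05). In the whole list of 21 (of 27) eicosanoid and phospholipase genes 3 were higher and 4 lower (2 without P2 or P3 or with all 18 libraries in 1 fit, 7 with the replicate block). Of 30 (of 31) cholesterol genes 2 were higher (1 without P1 or W1 or with no filter, quantile normalization or the replicate block, 0 without P2, P3 or W2 or with all 18 libraries in 1 fit, 4 without both P1 and W3) and 1 lower.

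Many matrix genes were higher in Pfp/Rag2-/- cells. Of 30 (of 40) collagen chains 19 were higher and 2 lower (1 without P1, P2, P3, W1 or W2, without both P1 and W1 or with no filter or a filter at 50, 0 with all 18 libraries in 1 fit), with a median of 1.18 against 0.02 over all genes. Col18a1, a basement membrane chain, was at 50553, 52397 and 52658 in Pfp/Rag2-/- cells and 13959, 15861 and 12816 in WT cells (log2 difference 1.87, SE 0.09, adjusted p = 4.77e-05). Col9a1, a chain of cartilage fibrils, had 22290, 26081 and 20573 in Pfp/Rag2-/- cells and 6117, 5657 and 7268 in WT cells (log2 difference 1.86, SE 0.12, adjusted p = 0.000175). Each Pfp/Rag2-/- library was far above each WT library in both. Col9a3 (1.60) and Col11a2 (0.71), also of cartilage, and Col15a1 (1.75) were higher as well. Col27a1, a fibrillar chain, stood at 2046, 2251 and 1838 in Pfp/Rag2-/- cells and 363, 328 and 322 in WT cells (log2 difference 2.59, SE 0.09, adjusted p = 3.57e-05). Col6a2, a chain of beaded filaments, had 1075, 828 and 855 in Pfp/Rag2-/- cells and 105, 119 and 112 in WT cells (log2 difference 3.02, SE 0.12, adjusted p = 3.57e-05), and its partner Col6a1 differed by 2.00. Col1a1, a chain of type I collagen, was at 2786, 2223 and 1489 in Pfp/Rag2-/- cells and 406, 444 and 594 in WT cells (log2 difference 2.14, SE 0.24, adjusted p = 0.00132). Its partner Col1a2 had 1194, 345 and 158 in Pfp/Rag2-/- cells and 10.5, 10.5 and 62.6 in WT cells (log2 difference 4.31, SE 0.90, adjusted p = 0.0129) and was not called without W2 (adjusted p = 0.0528). Both were highest in P1, and the order of the Pfp/Rag2-/- libraries was the same in Rgs5, a pericyte marker, with 632, 239.7 and 219 in Pfp/Rag2-/- cells and 54.6, 62.7 and 162 in WT cells (log2 difference 1.95, SE 0.53, adjusted p = 0.0312); it was not called without P1, P2, P3, W1 or W2 (adjusted p = 0.0547 to 0.105) nor with robust eBayes or all 18 libraries in 1 fit. The summed pericyte and fibroblast markers given above moved with the matrix genes, and the part of such cells in them was not tested. Most of the collagens were low in host cells: the GFP- means were 1046 for Col18a1, 295 for Col9a1, 306 for Col27a1 and 112 for Col6a2, below the Pfp/Rag2-/- GFP+ values. The lower members were Col12a1 (-1.20) and Col28a1 (-1.37); Col12a1 was not called with all 18 libraries in 1 fit, and Col28a1 was not called without P1, P2, P3, W1 or W2 (adjusted p = 0.1 to 0.138) nor with no filter or all 18 libraries in 1 fit.

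Other matrix genes went both ways. Of 39 (of 50) matricellular and matrix-linking genes 15 were higher and 9 lower (5 without W1 or W2 or without both P1 and W1, 3 with all 18 libraries in 1 fit). Comp, a cartilage protein that bridges collagens, had 827, 687 and 739.6 in Pfp/Rag2-/- cells and 43.1, 44.7 and 59.9 in WT cells (log2 difference 3.92, SE 0.16, adjusted p = 3.57e-05). Bcan, a brain proteoglycan known from glioma invasion, was at 9079.9, 7698 and 8283 in Pfp/Rag2-/- cells and 2569.5, 2754 and 3903 in WT cells (log2 difference 1.46, SE 0.16, adjusted p = 0.00105), and Tnr, its tenascin partner, at 3256, 3874 and 3323 in Pfp/Rag2-/- cells and 573, 533 and 1671 in WT cells (log2 difference 2.12, SE 0.41, adjusted p = 0.00977). The hosts were parted in all 3, with W3 the highest WT library. Lox, which cross-links collagen, had 68.5, 34.9 and 21.2 in Pfp/Rag2-/- cells and 1.92, 1.90 and 3.68 in WT cells (log2 difference 3.48, SE 0.49, adjusted p = 0.00309), and Postn, periostin, differed by 1.13. Dcn is given above. Mgp, matrix Gla protein, stood at 225, 208 and 125 in Pfp/Rag2-/- cells and 17.2, 8.55 and 39.6 in WT cells (log2 difference 3.24, SE 0.52, adjusted p = 0.00505), near its GFP- mean of 159.9. Fn1, fibronectin, was lower, with 3779.7, 3124 and 2895 in Pfp/Rag2-/- cells and 17269, 17205 and 13519 in WT cells (log2 difference -2.29, SE 0.13, adjusted p = 0.000101). Its GFP- mean was 24902 and its cultured mean 22698. Of 41 (of 46) matrix proteases and inhibitors 14 were higher (9 without both P1 and W1, 6 with all 18 libraries in 1 fit) and 7 lower (12 without both P1 and W3, 11 with the replicate block). Adam12 (1.71) and Adam23 (1.51), of the membrane-bound kind, and Reck (0.86), a membrane inhibitor, were higher, and the secreted proteases Adamts14 (-1.34) and Adamts1 (-1.16) were lower.

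Receptors for the matrix were called in both directions. Of 26 (of 30) integrin and laminin chains 7 were lower and 4 higher (2 without P1, P2, P3, W1 or W2 or without both P1 and W1). Itgav, the partner chain of many fibronectin receptors, was at 3122, 3599 and 3137 in Pfp/Rag2-/- cells and 6113, 6665 and 5733 in WT cells (log2 difference -0.91, SE 0.08, adjusted p = 0.000515). Itga1 (-1.10), which binds collagen and laminin, Itga7 (-1.26) and Itga8 (-1.70) were lower too, and Itga10, a collagen receptor of cartilage, was higher (1.27).

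Developmental pathways held several large upward differences. Of 28 (of 42) Wnt pathway genes 10 were higher (6 with all 18 libraries in 1 fit) and 4 lower. Wnt4, a ligand, was at 648, 607 and 560 in Pfp/Rag2-/- cells and 101, 80.8 and 197 in WT cells (log2 difference 2.36, SE 0.30, adjusted p = 0.00229), and Wnt6, another, at 137, 153 and 128 in Pfp/Rag2-/- cells and 25.9, 21.9 and 58 in WT cells (log2 difference 2.08, SE 0.35, adjusted p = 0.0062). Axin2, a target and feedback inhibitor of the canonical pathway, had 1236, 1136 and 1188 in Pfp/Rag2-/- cells and 363, 285 and 422 in WT cells (log2 difference 1.75, SE 0.14, adjusted p = 0.000352). All 3 were higher in every Pfp/Rag2-/- library. Rnf43, a ubiquitin ligase that removes Wnt receptors and is itself a target, had 68.5, 72.6 and 61.7 in Pfp/Rag2-/- cells and 11.5, 0.95 and 4.60 in WT cells (log2 difference 3.73, SE 0.63, adjusted p = 0.00606). Of the receptors, Fzd9 (1.00) was higher and Fzd7 (-1.12) lower. Lgr6, which binds R-spondins, stood at 19.2, 42.3 and 23 in Pfp/Rag2-/- cells and 154, 136 and 111 in WT cells (log2 difference -2.27, SE 0.31, adjusted p = 0.00286), and Tcf7l2 (-0.83), a factor of the pathway, was lower. Ctnnb1, beta-catenin, differed by 0.07 and was not called.

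In the Notch and Hedgehog pathways 8 of 26 (of 29) genes were higher (4 without P1 or without both P1 and W1, 3 without P2 or P3, 5 without W1) and 4 lower (2 with all 18 libraries in 1 fit). Dll3, a ligand that restrains Notch within the cell, was at 2647, 2161 and 2101 in Pfp/Rag2-/- cells and 308, 412 and 720.1 in WT cells (log2 difference 2.34, SE 0.29, adjusted p = 0.00186). Heyl, a target gene of Notch, had 48.4, 35.8 and 35 in Pfp/Rag2-/- cells and 0.958, 2.85 and 5.53 in WT cells (log2 difference 3.46, SE 0.48, adjusted p = 0.00297), and Dtx1, a regulator of the receptor, had 261, 333 and 246 in Pfp/Rag2-/- cells and 74.7, 90.3 and 132 in WT cells (log2 difference 1.52, SE 0.23, adjusted p = 0.00403). The receptor Notch1 was lower (-0.77). W3 was the highest WT library for these 3 higher genes. Hes1 (-0.07) and Hes5 (0.44), other targets, did not pass the test.

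Single growth factors differed by large amounts, and the counts of the family were 7 of 41 (of 55) genes higher (4 without P2, W1 or W2 or without both P1 and W1, 13 without W3, 14 without both P1 and W3) and 11 lower (as few as 4 without P3 or W2). These are 17.1% and 26.8%, against 15% and 15.3% over all genes. Ptn, pleiotrophin, a heparin-binding factor of the developing brain, was at 901, 884 and 920.1 in Pfp/Rag2-/- cells and 98.6, 93.1 and 146 in WT cells (log2 difference 3.02, SE 0.17, adjusted p = 0.000101). Fgfr2 had 32.9, 41.3 and 37.8 in Pfp/Rag2-/- cells and 0.958, 1.90 and 10.1 in WT cells (log2 difference 3.26, SE 0.64, adjusted p = 0.0103), and Bmp2, a bone morphogenetic protein, had 135, 162 and 196 in Pfp/Rag2-/- cells and 51.7, 48.5 and 58.9 in WT cells (log2 difference 1.60, SE 0.18, adjusted p = 0.00143). In each of these genes the WT libraries were all lower. Ngfr, the low-affinity neurotrophin receptor, was lower, with 279, 303 and 332 in Pfp/Rag2-/- cells and 933, 1062 and 656 in WT cells (log2 difference -1.51, SE 0.18, adjusted p = 0.00158), and so was Kitl, the ligand of the Kit receptor (-0.76). Of 25 (of 36) TGF-beta and BMP genes 4 were higher (2 without P1, P3 or W1 or with all 18 libraries in 1 fit, 7 without W3) and 5 lower (2 without P2, W1 or W2 or without both P1 and W1, 1 without P3, 3 with all 18 libraries in 1 fit), 16% and 20.0% of the list and so near the background. Feedback genes of the ERK kinases were lower in 5 of 18 members (9 without both P1 and W3), among them Dusp6, an ERK phosphatase, with 5979.6, 5416 and 5274 in Pfp/Rag2-/- cells and 10472, 11024 and 8118 in WT cells (log2 difference -0.82, SE 0.12, adjusted p = 0.00348), and Etv1 (-0.92). The count of AP-1 and immediate early genes turned on W3. Of 25 such genes 5 were lower; the count was as few as 2 without P2 and as many as 17 without both P1 and W3. Jun, a subunit of AP-1, had 14726, 15996 and 14428 in Pfp/Rag2-/- cells and 32210, 29856 and 21902 in WT cells (log2 difference -0.88, SE 0.14, adjusted p = 0.00509), with W3 the lowest WT library.

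Genes of the glial lineage differed as single genes rather than together. Of 34 (of 52) neural and glial transcription factors 4 were higher (2 without P1 or W1, without both P1 and W1 or with all 18 libraries in 1 fit, 1 without P2, P3 or W2, 7 without W3) and 9 lower (3 with all 18 libraries in 1 fit). Sox8, a factor of the oligodendrocyte lineage, stood at 1374, 1676 and 1494 in Pfp/Rag2-/- cells and 311, 220.4 and 611 in WT cells (log2 difference 2.12, SE 0.34, adjusted p = 0.00481). Prrx1, a mesenchymal factor, had 2548, 2379 and 2622 in Pfp/Rag2-/- cells and 5692, 5975 and 7806 in WT cells (log2 difference -1.35, SE 0.12, adjusted p = 0.000505). Sox2 (-0.03), Sox10 (0.34) and Pax6 (-0.19) did not pass the test. Of 14 (of 15) oligodendrocyte markers 6 were higher (3 without P2 or without both P1 and W1, 10 without both P1 and W3) and 2 lower (1 with a filter at 50). Opalin, a membrane protein of myelinating cells, was at 216, 174 and 199 in Pfp/Rag2-/- cells and 12.4, 12.4 and 13.8 in WT cells (log2 difference 3.82, SE 0.18, adjusted p = 4.93e-05). Mog, a myelin protein, had 439, 559 and 419 in Pfp/Rag2-/- cells and 113, 141 and 221 in WT cells (log2 difference 1.62, SE 0.25, adjusted p = 0.0043), and Cldn11, which seals the myelin sheath, had 1619, 1717 and 1570.3 in Pfp/Rag2-/- cells and 506, 557 and 870.2 in WT cells (log2 difference 1.38, SE 0.19, adjusted p = 0.00286). The GFP- means of Opalin (15.2), Mog (67.5) and Cldn11 (371) were below the Pfp/Rag2-/- GFP+ values. Mbp (0.29, adjusted p = 0.638), Mag (1.90, adjusted p = 0.0699) and Mobp (1.81, adjusted p = 0.287), which encode myelin proteins, did not pass the test, and Enpp2, autotaxin, was lower, with 703, 296 and 391 in Pfp/Rag2-/- cells and 2361, 2605 and 2117 in WT cells (log2 difference -2.44, SE 0.29, adjusted p = 0.00167).

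Of 11 (of 14) astrocyte markers 5 were lower (2 with all 18 libraries in 1 fit) and 1 higher. Aldoc, the brain form of aldolase and also a gene of glycolysis, was at 967, 1039.7 and 1038 in Pfp/Rag2-/- cells and 2219, 1932 and 2571 in WT cells (log2 difference -1.13, SE 0.10, adjusted p = 0.000605). Slc1a3 (-0.53), a glutamate transporter, and S100b (-0.36), a calcium-binding protein, were lower as well. Slc1a3 and S100b were not called with all 18 libraries in 1 fit. Gfap, the main astrocyte filament, had 810, 755 and 396 in Pfp/Rag2-/- cells and 113, 97.9 and 1076 in WT cells and was not called (log2 1.44, adjusted p = 0.252). Its W3 value lay far above W1 and W2. Of 14 (of 15) glioma and stem cell markers 3 were higher (1 without P2, P3 or W2, without both P1 and W1 or with all 18 libraries in 1 fit) and 2 lower (1 without P2 or W2 or with all 18 libraries in 1 fit, 4 with the replicate block), and of 9 (of 16) neuron markers 2 were higher (7 without W3 or without both P1 and W3, 1 with all 18 libraries in 1 fit, 4 with the replicate block) and 1 lower. Of 10 microglia markers 2 were lower, Olfml3 (-1.55) and Sparc (-0.48, not called with all 18 libraries in 1 fit). Among 9 (of 12) dendritic cell markers 1 was higher, and among 5 (of 6) erythrocyte markers none was called. Of 17 (of 18) NF-kB feedback genes 1 was lower, a count that was as few as 0 without P2 and as many as 14 without both P1 and W3. Of 7 (of 13) mitochondrially encoded genes 2 were lower (0 without P2 or P3, 1 with all 18 libraries in 1 fit).

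Cell surface genes of neural tissue were called in both directions. Among 46 (of 60) axon guidance genes 13 were higher (8 without P2, 7 without both P1 and W1) and 4 lower (2 without W2 or with all 18 libraries in 1 fit, 7 without W3 or without both P1 and W3). Sema6a, a membrane-bound semaphorin, was at 1993, 2072 and 1896 in Pfp/Rag2-/- cells and 1119, 1094 and 1194 in WT cells (log2 difference 0.81, SE 0.06, adjusted p = 0.000267), and Sema3a, a secreted one, at 331, 277 and 389 in Pfp/Rag2-/- cells and 114, 97.9 and 187 in WT cells (log2 difference 1.36, SE 0.25, adjusted p = 0.00858). The receptors Plxna2 (1.13) and Plxnd1 (0.55) were higher and the co-receptor Nrp2 (-1.23) lower. Among 31 (of 48) cadherins and protocadherins 10 were higher (6 with all 18 libraries in 1 fit) and 7 lower (2 with all 18 libraries in 1 fit). Of the higher ones 9 belong to the clustered Pcdhb genes of chromosome 18, neighbours that share sequence, such as Pcdhb14, with 244, 213 and 280 in Pfp/Rag2-/- cells and 85.2, 59.9 and 109 in WT cells (log2 difference 1.56, SE 0.23, adjusted p = 0.0038). Cdh6, a cadherin of the developing brain and kidney, was lower, with 239, 306 and 276 in Pfp/Rag2-/- cells and 1398, 1564 and 1370.3 in WT cells (log2 difference -2.40, SE 0.10, adjusted p = 3.57e-05). Among 40 (of 84) transmitter receptors, transporters and channels 10 were higher (as few as 3 without P2 and as many as 16 without W3) and 5 lower. Which direction held more of these depended on the libraries, with 4 higher and 6 lower without P1, 3 and 4 without P2, 4 and 5 without P3, 5 and 6 without W1, and 5 and 7 without both P1 and W1; without both P1 and W1 the cadherins had 7 higher and 8 lower. Slc6a3 is given above, P2rx7, an ATP-gated channel, was higher by 0.39, and Chrnb1, an acetylcholine receptor chain, was lower (-1.41). Tubb3, a tubulin of neurons and many tumours, had 382, 329.7 and 373 in Pfp/Rag2-/- cells and 1534, 1754 and 1460.5 in WT cells (log2 difference -2.13, SE 0.09, adjusted p = 3.57e-05), and Syn1, a protein of synaptic vesicles, had 408, 382 and 432 in Pfp/Rag2-/- cells and 103, 145 and 151 in WT cells (log2 difference 1.62, SE 0.16, adjusted p = 0.000829).

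Krt8, a keratin of simple epithelia, was at 5779.6, 5010.4 and 5840.1 in Pfp/Rag2-/- cells and 1213, 1411 and 1251 in WT cells (log2 difference 2.10, SE 0.08, adjusted p = 3.57e-05), with a GFP- mean of 78.1 and a cultured mean of 17.4. Of 11 (of 22) intermediate filament genes 3 were higher (5 without W3) and 2 lower (1 without P2, W1 or W2, without both P1 and W1 or with all 18 libraries in 1 fit). Synm, synemin, was higher as well (1.34). Of 23 (of 26) long noncoding RNAs 8 were higher (4 without P1, 5 without P2, P3 or W1 or with a filter at 50, 3 without both P1 and W1) and none lower. Miat had 314, 271 and 378 in Pfp/Rag2-/- cells and 7.66, 20.0 and 47.9 in WT cells (log2 difference 3.95, SE 0.57, adjusted p = 0.00349), and Neat1, the scaffold of paraspeckles, had 11461, 11557 and 10190 in Pfp/Rag2-/- cells and 4006, 4468 and 5545 in WT cells (log2 difference 1.25, SE 0.12, adjusted p = 0.000729). Miat was highest among WT libraries in W3 and still below every Pfp/Rag2-/- library. Malat1 differed by -0.04 and was not called.

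**Figure D5:**
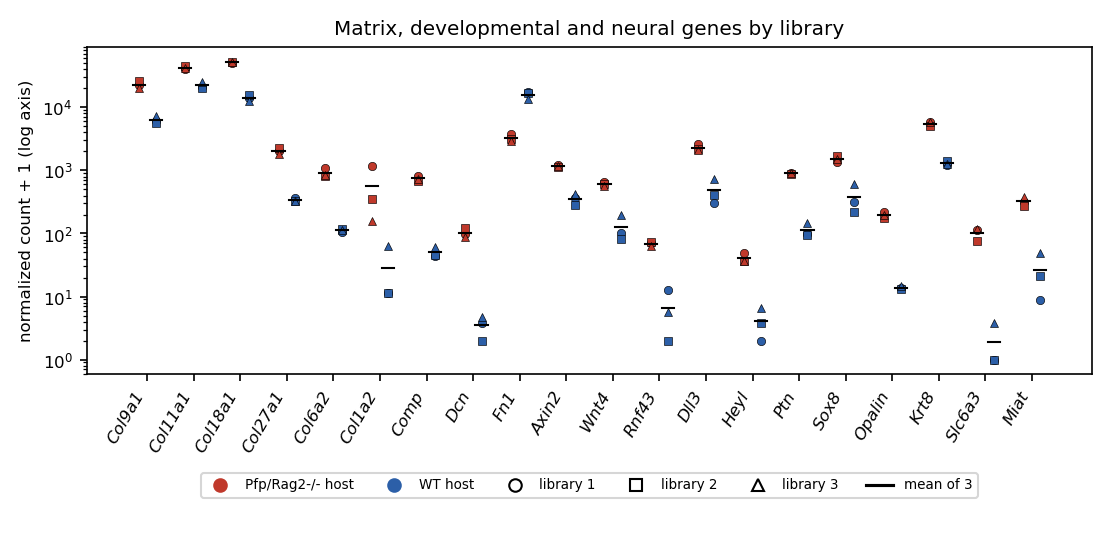
Normalized counts plus 1 of 20 matrix, developmental and neural genes in each library (log axis); red, Pfp/Rag2-/- hosts, blue, WT hosts, with a symbol for each library number and a bar at the mean of 3. All but Fn1 are higher in Pfp/Rag2-/- cells, and W3 (blue triangle) is the highest WT library in Wnt4, Dll3, Sox8 and Miat.

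The remaining genes with the largest upward differences have little in common by known role. Ramp1, a receptor partner for the peptide CGRP, was at 612, 713 and 614 in Pfp/Rag2-/- cells and 77.6, 66.5 and 87.5 in WT cells (log2 difference 3.05, SE 0.13, adjusted p = 3.57e-05). Ppfia2, a liprin of synapses, had 779.9, 727 and 975 in Pfp/Rag2-/- cells and 102, 91.2 and 105 in WT cells (log2 difference 3.04, SE 0.13, adjusted p = 3.57e-05), and Asic4, of the acid-sensing channel family, had 222, 181 and 160.2 in Pfp/Rag2-/- cells and 12.4, 13.3 and 28.5 in WT cells (log2 difference 3.39, SE 0.33, adjusted p = 0.000806). No value of 1 host lay in the range of the other. Kcnk13, a potassium channel also known from microglia, stood at 209, 183 and 254 in Pfp/Rag2-/- cells and 21.1, 14.3 and 40.5 in WT cells (log2 difference 3.15, SE 0.36, adjusted p = 0.00148), below its GFP- mean of 647. Chodl, a lectin-like membrane protein, had 129, 114 and 122 in Pfp/Rag2-/- cells and 7.66, 8.55 and 19.3 in WT cells (log2 difference 3.37, SE 0.35, adjusted p = 0.000962), and Tmem178, a membrane protein, had 154, 118 and 150.1 in Pfp/Rag2-/- cells and 11.5, 9.50 and 35.9 in WT cells (log2 difference 3.06, SE 0.47, adjusted p = 0.00431). W3 was the highest WT library in each.

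Counts of vascular markers depended on single libraries. Of 17 (of 18) endothelial markers none was higher and 1 lower in Pfp/Rag2-/- cells, although the median was 1.43; the number higher was as many as 12 without W3 or without both P1 and W3. Cldn5, a tight junction protein of brain vessels, had 393, 238 and 254 in Pfp/Rag2-/- cells and 24.9, 51.3 and 251 in WT cells and was not called (log2 2.04, adjusted p = 0.0819). P1 was the highest library, and W3 lay among the Pfp/Rag2-/- values. The lower marker was Ly6c1, with 83.1, 19.3 and 20.3 in Pfp/Rag2-/- cells and 529.6, 606 and 592 in WT cells (log2 difference -4.12, SE 0.52, adjusted p = 0.00211), a surface protein that cultured GL261 cells also carry, at a mean of 2178. Of 15 (of 16) pericyte and fibroblast markers 7 were higher (4 without W2), but 4 of these, Col1a1, Col1a2, Col3a1 and Dcn, also count among the matrix genes above, and Cspg4, with 8730.2, 8579.6 and 8377 in Pfp/Rag2-/- cells and 3366, 3712 and 4254 in WT cells (log2 difference 1.19, SE 0.08, adjusted p = 0.000254, not called with all 18 libraries in 1 fit), is a marker of glioma cells as well. Kcnj8 (2.68, adjusted p = 0.0682) and Abcc9 (3.08, adjusted p = 0.0803), the pericyte channel genes, did not pass the test.

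Unsorted tumours of the same 2 hosts, which are separate libraries, give the same genes in another material, though they mix tumour and host cells. Of the genes higher by at least 2-fold in sorted Pfp/Rag2-/- cells 93.5% were also higher on average in unsorted Pfp/Rag2-/- tumours, and of those lower by at least 2-fold 95.5% were also lower; over all genes tested the shares with these signs were 52.8% and 47.2%. The 3 unsorted values of each host did not overlap, in the same direction, for 70.2% of the higher set and 79.0% of the lower set, against 25.3% and 23.3% of all genes. Apol6, for example, averaged 1.21 in Pfp/Rag2-/- and 1499.9 in WT tumours, Il12rb1 51.5 in Pfp/Rag2-/- and 2650.1 in WT tumours, Ramp1 835 in Pfp/Rag2-/- and 95.7 in WT tumours and Comp 291 in Pfp/Rag2-/- and 46.4 in WT tumours. Col1a2 went against its sorted difference, with 145 in Pfp/Rag2-/- and 231 in WT tumours. GFP- cells of WT tumours exceeded both GFP+ groups by more than 10 times in 43 of the 448 genes lower by at least 2-fold (9.60%) and in 5 of the 611 genes higher by at least 2-fold (0.818%), against 6.12% of all genes.

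Cultured GFP+ cells, which had met neither host, lay at different distances from the 2 groups. Among the 448 genes lower by at least 2-fold the Pfp/Rag2-/- mean was nearer to the cultured mean than the WT mean was in 275 (61.4%), and in 73.0% the cultured mean was below the WT mean. Among the 611 genes higher by at least 2-fold the Pfp/Rag2-/- mean was the nearer in 167 (27.3%), and the cultured mean was below the Pfp/Rag2-/- mean in 87.1%. Over all genes tested the Pfp/Rag2-/- mean was the nearer in 43.7%. There the cultured mean was below the WT mean in 50.7% and below the Pfp/Rag2-/- mean in 52.3%. Each set was picked for a higher mean in that host, which by itself raises such a share. Igtp and Psmb9 averaged 3119 and 309 in culture, nearer to the Pfp/Rag2-/- than to the WT means, whereas Col9a1 and Ramp1 averaged 1320.1 and 6.63, below those of both hosts. Cultured cells are set beside the tumour cells here without a test.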

How the data were processed

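RNA of sorted GFP+ cells was sequenced in 3 libraries for each host, after poly(A) selection and a strand-marking kit per the labels' protocols. The deposited table holds, for 18 libraries, a normalized signal: read counts per gene divided by 1 size factor per library by the authors, with STAR 2.5.2b, DESeq2 and GRCm38 named in the submitters' processing notes. Which program counted reads, with which strand setting and annotation, is not stated there. Every value was a whole number of reads within 0.05 reads, so reads were recovered, with totals of 19172814 to 20081406 in the 6 libraries. Names and positions were added from the GENCODE mouse annotation, which held 48435 of the 48795 genes in the table.

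Genes that reached 10 in 3 or more of the 6 libraries were tested on log2(value + 1) with limma 3.58.1 in R 4.3.3 (moderated test with a trend, Benjamini-Hochberg adjustment over all 14807 genes, threshold 0.05, two-sided), Pfp/Rag2-/- minus WT. Because the table held normalized values, edgeR 4.0.16 and DESeq2 1.42.0 were run on the recovered reads as alternatives. The script was tested on simulated data. Same-numbered libraries of the 2 hosts deviated together (r = 0.62, 0.48 and 0.10 across genes), but P3 and W2 did so too (r = 0.44), and the other different-numbered pairs lay between -0.57 and 0.07. Pairing by number would rest on this correlation alone, since the labels give no shared litter or day. The main fit used no pairing, and the replicate block is an alternative. Counting intervals do not apply to differences between libraries, and depth limits genes with few reads.

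The genes named are the 15 highest and 15 lowest among called genes without overlap whose higher host averaged 100 or more, up to 4 called members each way of each of 62 gene lists, other list members given with their values, and genes whose start region is printed. These members and lists were chosen with earlier results of these data known. Of 1636 list entries 13 were not matched in the table. Results of some genes are not reported here.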

Additional observations from a re-analysis of the deposited data

How the results depend on the processing

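Counts of called genes depended on which libraries were used more than on the test. Against 2228 higher and 2269 lower genes, leaving out 1 library gave 1071 to 2870 higher and 1336 to 2650 lower genes with the filter applied again, and 1137 to 2843 higher and 1380 to 2689 lower genes with the gene set kept, an alternative chosen after seeing the data (without P2 1137 and 1385, without P3 1240 and 1427, without W1 1431 and 1507, without W2 1358 and 1380). At 2-fold or more these ranges were 356 to 904 and 292 to 509 with the filter applied again (611 higher and 448 lower in the full fit), and 417 to 906 and 336 to 509 with the gene set kept. Without both libraries numbered 1 the counts were 1011 higher, 1168 lower and 335 higher by 2-fold, or 1076, 1264 and 377 with the gene set kept. All 18 libraries in 1 fit gave 1483 higher genes, and a filter at 50 gave 386 higher by 2-fold. The causes were not tested, apart from the fewer genes that the filter at 50 leaves. No filter, a pseudocount of 10, quantile normalization, TMM factors, robust eBayes, edgeR, DESeq2 and the replicate block each kept all 4 counts within 1.5 times.

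Over the genes that the naming rule could reach, the replicate block ended 20 calls and made 102. No gene named as higher or lower in the text is given with a call that the block ended. For the lists, it moved 23 of 124 counts by more than 1.5 times, against 43 with all 18 libraries in 1 fit. Genes near no difference reversed when W3 was left out: leaving out 1 library, log2 differences ran from -0.61 (without W3) to 0.41 for Egr3 and from -0.40 (without W3) to 0.28 for Egr2, against 0.00071 and 0.0024 in the full fit. Without both P1 and W3 Egr3 was at -0.61, Relb at -0.40 and Nr4a1 at -0.23. All 4 are immediate early or NF-kB genes that were not called with 6 libraries. At these depths genes under 10 normalized counts were not tested.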
